A study of Homo sapiens with 32 samples.

Results

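The genes described here are 41 histone lysine methyltransferases and demethylases, or close relatives of them, outside a separate list of enzymes that act on lysine 36 of histone H3. They are a list of enzymes given by name, a rule that uses no measured value, although chosen with earlier results of these data known. All 41 were found among the 20037 protein-coding genes of the RefSeq gene table (GRCh38). A peak was assigned to a gene where it overlapped the gene body by at least 1 bp.

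The data are lists of N6-methyladenosine (m6A) peaks from methylated RNA immunoprecipitation and sequencing (MeRIP-seq), in which an antibody against m6A pulls down fragments of RNA. Peaks were called in 16 immunoprecipitated (IP) libraries, 8 of 786-O, a clear cell renal cell carcinoma (ccRCC) line, and 8 of RPTEC, an immortalized line of renal proximal tubule epithelium. Each cell line was studied as the parental line (WT), as SETD2 knockout clones named SETD2KO-1 and SETD2KO-2, and as SETD2KO-1R, which is SETD2KO-1 with a full-length FLAG-tagged SETD2 transgene, again derived as a clone. There were 2 libraries of each of these 4 lines per cell line. The 4 libraries of the knockout clones of a cell line are called SETD2KO below, and the other 4, from its parental and rescue lines, SETD2-expressing. Each knockout and each rescue line is 1 clone, the rescue exists for 1 of the knockout clones only, and nothing in the labels says that the libraries of a line came from separate cultures, so p-values measure the spread between these libraries. The lists of 786-O and RPTEC carry different experiment names, so that cell line and experiment cannot be told apart.

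SETD2 trimethylates lysine 36 of histone H3 on transcribed gene bodies, a mark that the m6A writer complex can recognise. The list described here holds enzymes that set or remove methyl groups at other histone lysines. It also holds relatives such as KMT2E, without known histone methyltransferase activity, and SETD3, an actin histidine methyltransferase. Methylation of H3K4 marks promoters and enhancers, that of H3K9 and H3K27 marks silent chromatin, H3K79 methylation accompanies transcription and H4K20 methylation changes through the cell cycle. The peaks are placed on gene bodies, where some overlap a further gene (without those, the share of listed peaks in the 41 genes given below is 0.543% instead of 0.588%), and they say nothing of the activity or protein level of the enzymes. A peak call needs enough RNA as well as methylation, so that more transcript and more methylation per transcript cannot be told apart here.

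The lists held 25710 to 39670 peaks in 786-O and 19249 to 31207 in RPTEC. The files do not give the read depth of a library, so peak numbers are also given per 10000 listed peaks, called the peak rate below. The score of a peak has no stated scale and was used only as a percentile within its own list, where 100 is the highest. PAX8, PAX2, CDH6, KRT8 and KRT18, markers of renal epithelium, had a peak in all 16 libraries, while LRP2, AQP1 and SLC34A1 of the differentiated proximal tubule, CA9 of ccRCC, and PTPRC, CD3E, CD14, PECAM1, VWF and ALB of other cell types had none in any. Of the 8 markers of renal epithelium on the list, 6 had a peak in all 8 libraries of 786-O and 7 in all 8 of RPTEC, with EPCAM (0 and 2 libraries) and KRT19 (2 and 8) the exceptions. Of the ccRCC markers, 4 of 5 had a peak in some library of either cell line, VEGFA and EPAS1 in all 16. Of the other lists, 4 of 7 proximal tubule markers had a peak in some library of 786-O and 2 of 7 in RPTEC, and 3 of 10 and 4 of 10 markers of other cell types did. SETD2 itself, the targeted gene, kept 4 to 10 peaks in 786-O SETD2KO against 7 to 10 in SETD2-expressing libraries, and 4 to 6 against 7 to 11 in RPTEC, which does not check the knockouts, since a transcript can remain.

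Some of the genes carried peaks on the first 50 transcribed bases, and the starts that differed most or least between the cell lines are shown first. Each line gives 30 bases across the RefSeq start of a gene (GRCh38), with the 15 bases before the start in lower case and the first 15 transcribed bases in capitals. KDM1A and KMT2E had a peak there in nearly all libraries, and EZH2, JMJD1C (an internal start of the gene) and KDM6A mostly in 786-O. The region at the KMT2E start, chr7:105012503-105014403, lies mostly upstream of that gene and also in KMT2E-AS1, so its peaks could belong to either transcript.
KDM1A, chr1:23019453-23019482, plus strand: ggcgggagcgcgcttGGCGCGTGCGTACGC
KMT2E, chr7:105014190-105014219, plus strand: cgccgccattttcccAGAGCGAGAGGCAGT
EZH2, chr7:148884277-148884306, minus strand: cgattgggctgccgcGTTTGGCGCTCGGTC
JMJD1C, chr10:63465963-63465992, minus strand: ggagggagacggagcAGTACTGGCCGCGGC
KDM6A, chrX:44873173-44873202, plus strand: ctgtgtgacacaattACAACAACTTTGTGC

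The 4 letters GGAC, the core of the m6A consensus, were searched in the first 50 transcribed bases of each start in the promoter table, where 39 of the 41 genes have 49 starts. They were present on the transcribed strand at 11 of the 49 starts (22.4%), against 19.8% of the 22199 starts of all protein-coding genes. With the reverse complement GTCC counted as well, the shares were 34.7% and 35.4%. Of the starts with many peaks, EZH2 and SETD7 held the motif, shown here in capitals within 30 bases.
EZH2, chr7:148884242-148884271, minus strand: gcgtccgacacccggtgGGACtcagaaggc
SETD7, chr4:139556171-139556200, minus strand: ggagcacccagagGGACgggaggcagccgc
The first base of the motif was base 38 of the EZH2 transcript and base 33 of that of SETD7. The starts of KDM1A, KMT2E, JMJD1C and KDM6A did not hold these letters in that window, which says nothing about other forms of the motif.

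Together the 41 genes held 108 to 248 peaks per library, which was 0.588% ± 0.0452 (SD, n = 16) of the listed peaks. In 786-O they took 0.601% ± 0.0528 (n = 8) and in RPTEC 0.575% ± 0.0347 (n = 8) of a list. Between 34 and 40 of the 41 genes had a peak in a given library. The count called in all 16 libraries was 26 of 41 (63.4%), against 23.1% of all protein-coding genes, and none of the 41 lacked a peak everywhere, against 33.0% of all genes. Of the 13420 protein-coding genes with a peak in any library, 34.5% were called in all 16. The genes are long, with a median of 56.0 kb against 24.1 kb for all protein-coding genes, and their mean peak number followed their length only in part (Spearman's rho 0.49 across the 41 genes, which are not independent replicates). Among the 10 enzymes of H3K36 methylation measured in the same way, 9 were called in all 16 libraries, and their median length was 158 kb.

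**Figure D1:**
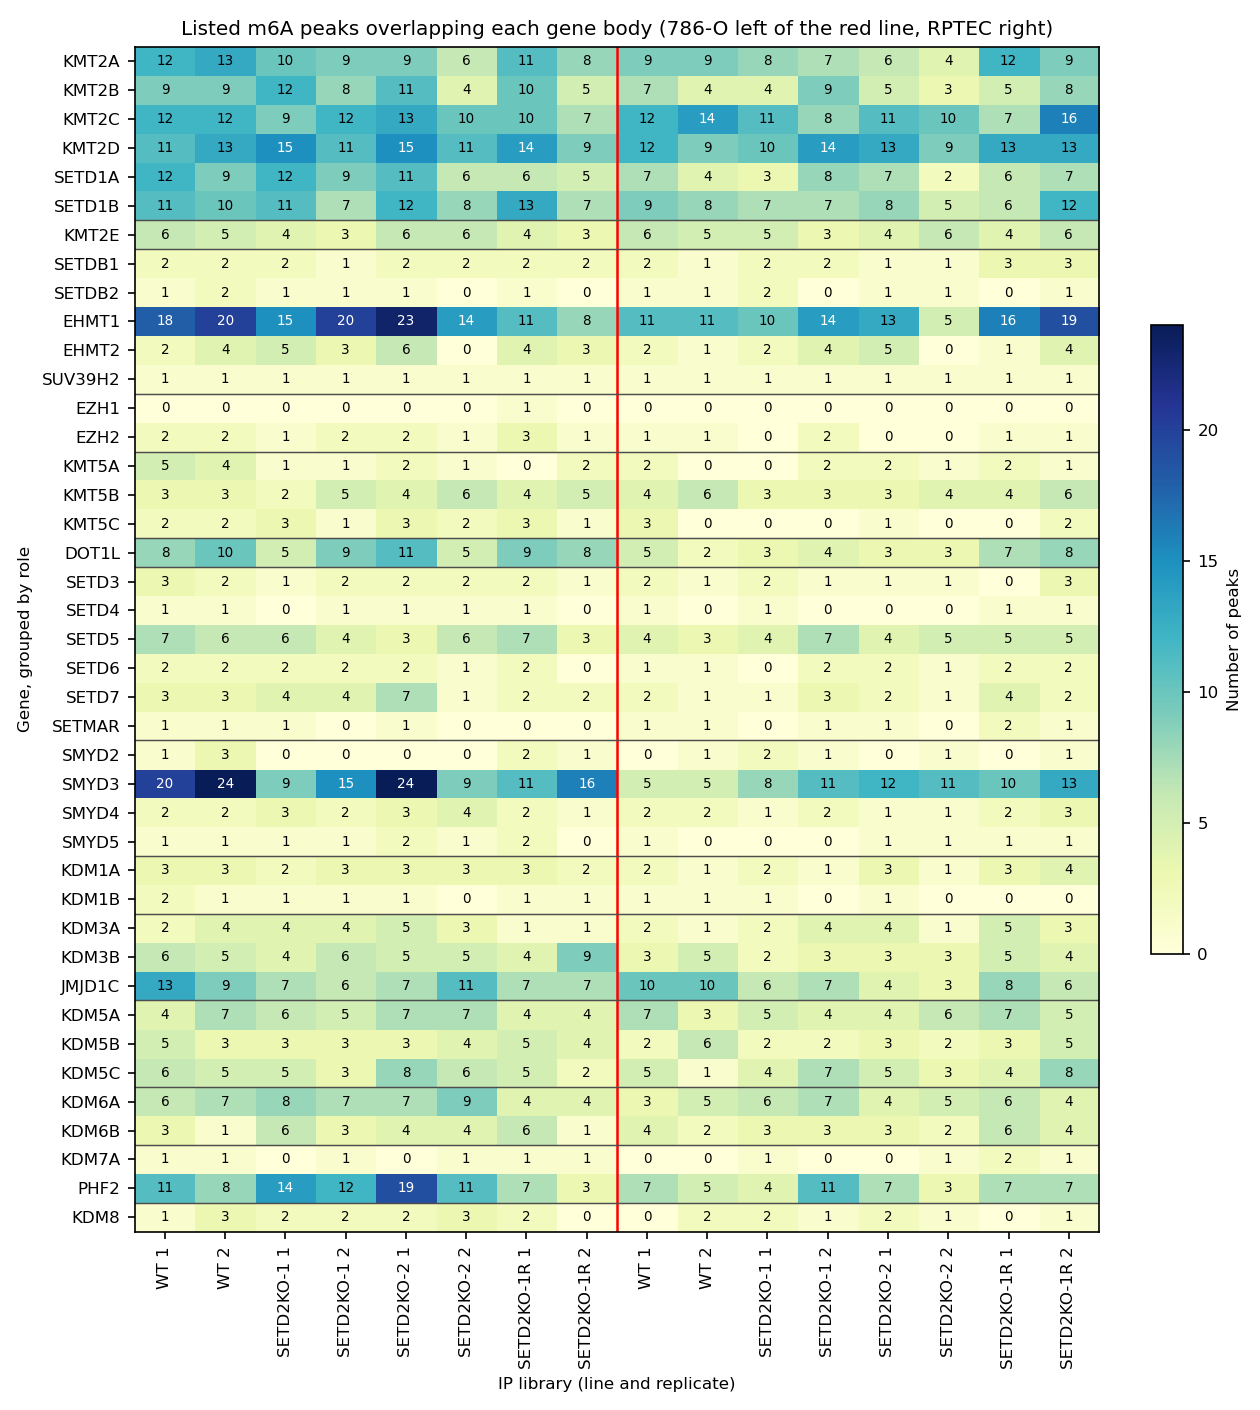
Number of listed m6A peaks overlapping each of the 41 gene bodies (rows, grouped by role) in each of the 16 IP libraries (columns, line and replicate), as numbers and as colour. EHMT1, SMYD3, KMT2D, KMT2C and KMT2A stand out with the most peaks, EZH1 has 1 peak in 1 library, and SUV39H2 has exactly 1 peak in every library.

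The H3K4 methyltransferases carried the most peaks. The 6 enzymes of this group, which form the catalytic cores of the COMPASS complexes, were called in all 16 libraries and held 31.3% of all peaks in the 41 genes. KMT2D, an enhancer H3K4 monomethyltransferase, led the group with a mean of 12 peaks. It had 9 to 15 peaks in 786-O (median 12) and 9 to 14 in RPTEC (median 12.5). KMT2C, its paralog, had 7 to 13 peaks in 786-O (median 11.0) and 7 to 16 in RPTEC (median 11.0). The remaining members ranged from 4 to 13 peaks for KMT2A, 3 to 12 for KMT2B, 2 to 12 for SETD1A and 5 to 13 for SETD1B. The highest-scoring peak of each of these genes had a median percentile in its list of 98.1 for KMT2A, 94.5 for SETD1A, 94.2 for KMT2B, 93.1 for KMT2D, 91.8 for KMT2C and 91.5 for SETD1B. Over the 26 of the 41 genes called in every library the median of this value was 88.9, and over all 4626 such protein-coding genes 78.97, and a gene with more peaks has more chances of a high one. KMT2E, a relative without known histone methyltransferase activity, had 3 to 6 peaks in either cell line and its best peak at a median percentile of 93.7.

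Per length, KMT2B was the most densely covered of the 41 genes, with a mean of 3.38 peaks per 10 kb, followed by KMT2D with 2.87 and SETD1A with 2.65. SMYD3, the longest gene at 758 kb, had many peaks and only 0.167 per 10 kb.

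Among the H3K9 methyltransferases EHMT1, which with EHMT2 forms the enzyme of H3K9 dimethylation, had the highest mean peak number of all 41 genes (14.25). It had 8 to 23 peaks in 786-O (median 16.5) and 5 to 19 in RPTEC (median 12). EHMT2 had 0 to 6 peaks. SUV39H2, which trimethylates H3K9, had 1 peak in each of the 16 libraries, always in the region chr10:14896612-14897452, which also lies in the gene DCLRE1C, so that the transcript it belongs to is uncertain. SETDB1 had 1 to 3 peaks and SETDB2 0 to 2, and their best peaks ranked lower, at median percentiles of 57.0 and 23.7.

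The catalytic subunits of Polycomb repressive complex 2 were sparsely covered. EZH2 had 1 to 3 peaks in all 8 libraries of 786-O (median 2.0) and 0 to 2 in RPTEC (median 1.0), with a peak in 5 of the 8. EZH1 was called once, in 786-O SETD2KO-1R replicate 1, and in no other library. Of the H4K20 methyltransferases, KMT5B had 2 to 6 peaks in 786-O (median 4.0) and 3 to 6 in RPTEC (median 4.0), KMT5A 0 to 5 and KMT5C 0 to 3. DOT1L, the H3K79 methyltransferase, had 5 to 11 peaks in 786-O (median 8.5) and 2 to 8 in RPTEC (median 3.5).

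Of the other SET domain proteins, SETD5 had the most peaks, 3 to 7 in 786-O (median 6.0) and 3 to 7 in RPTEC (median 4.5). SETD3, an actin histidine methyltransferase, SETD4, SETD6, SETD7 and SETMAR ranged from 0 to 7 peaks. In the SMYD family SMYD3 had 9 to 24 peaks in 786-O (median 15.5) and 5 to 13 in RPTEC (median 10.5), whereas SMYD2, SMYD4 and SMYD5 had at most 4.

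Among the demethylases the H3K9 and H3K4 Jumonji enzymes held the most peaks, 8.53% and 7.75% of all peaks in the 41 genes, and the H3K27 enzymes 5.25%. KDM1A, the flavin-dependent H3K4 demethylase LSD1, had 2 to 3 peaks in 786-O and 1 to 4 in RPTEC, and its best peak was among the highest of the list at a median percentile of 98.0. Its relative KDM1B had 0 to 2 peaks. Among the H3K9 Jumonji demethylases JMJD1C had 6 to 13 peaks in 786-O (median 7.0) and 3 to 10 in RPTEC (median 6.5), KDM3B 2 to 9 and KDM3A 1 to 5.

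KDM5A, an H3K4 Jumonji demethylase, had 4 to 7 peaks in 786-O (median 5.5) and 3 to 7 in RPTEC (median 5.0), with the highest median percentile of a best peak in all 41 genes, 98.2. KDM5B had 2 to 6 peaks and KDM5C 1 to 8. The H3K27 demethylase KDM6A had 4 to 9 peaks in 786-O (median 7.0) and 3 to 7 in RPTEC (median 5.0), and KDM6B had 1 to 6. PHF2, a relative of KDM7A, had 3 to 19 peaks in 786-O (median 11.0) and 3 to 11 in RPTEC (median 7.0), while KDM7A had 0 to 2. KDM8 had 0 to 3 peaks in 786-O (median 2.0) and 0 to 2 in RPTEC (median 1.0).

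Along the 39 genes with a known strand, most summits lay in the body of the gene. Outside the first 10% and the last 10% of the length of the gene lay 74.7% ± 1.80 (SD, n = 8) of the peaks in 786-O and 76.4% ± 2.88 (n = 8) in RPTEC, against 66.1% and 65.9% over all protein-coding genes with a strand. Within 5 kb of the 3′ end lay 13.4% ± 1.62 in 786-O and 13.3% ± 1.36 in RPTEC, against 27.5% and 28.3%, and within 1 kb of the 5′ end 5.91% ± 1.78 and 4.36% ± 2.03, against 8.69% and 7.95%. The greater length of the 41 genes moves with these shares and its part in them was not tested.

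Peaks of the 16 libraries were merged where they overlapped, which gave 492 regions in the 41 genes. Of these, 34 were called in all 16 libraries (6.91%, against 4.86% of the 82676 regions in all protein-coding genes) and 164 in 1 library (33.3%, against 35.6%). The 34 constant regions lay in 20 genes, with 4 in KMT2D, 3 each in KMT2A, KMT2C and KMT2E and 2 each in KMT2B, SETD1B, SETD5, DOT1L and JMJD1C. The region with the highest percentiles lay in KMT2B at chr19:35719591-35721135, between 90.7 and 98.6 (median 94.2). In KDM1A the constant region chr1:23019320-23019895 covered the start of the gene printed above, at percentiles of 84.2 to 97.9. A further 6 of the 26 genes called in every library had no single region called in all of them.

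Whether the tumour line and the tubule line differed in these genes was tested with a two-sided exact permutation test of the peak rate, 8 libraries against 8, fitted on the 13420 protein-coding genes with a peak and adjusted over all of them (Benjamini-Hochberg). None of the 41 genes passed an adjusted p of 0.05 in either direction, while 3.2% of all genes tested were called higher in 786-O and 3.82% higher in RPTEC. At an unadjusted p under 0.05, 3 of the 41 were higher in 786-O (background 9.96%) and 3 in RPTEC (background 11.5%). The lists of 786-O were longer, so a gene with equal peak numbers has a lower rate there. In unscaled peak numbers none of the 41 passed either (background 3.44% higher in 786-O and 1.92% in RPTEC), with 8 of 41 at an unadjusted p under 0.05 higher in 786-O (background 13.2%) and 0 in RPTEC (background 4.85%).

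DOT1L came closest among those higher in 786-O. Its rate was 2.47 ± 0.553 (SD, n = 8) in 786-O and 1.61 ± 0.610 (n = 8) in RPTEC, a difference of 0.86 (exact permutation p = 0.0129, adjusted p = 0.0995), and the libraries overlapped. In unscaled peak number its adjusted p was 0.0872, whereas the difference was 0.52 (adjusted p = 0.442 by the permutation test) among the 50% of peaks with the highest scores and 0.26 (adjusted p = 1) with equally many top-scoring peaks taken from every library. EZH2 had a rate of 0.528 ± 0.201 (n = 8) in 786-O and 0.265 ± 0.242 (n = 8) in RPTEC (exact permutation p = 0.0339, adjusted p = 0.181). KMT5C, which trimethylates H4K20, had 1 to 3 peaks in 786-O (median 2.0) and 0 to 3 in RPTEC (median 0), where 3 of 8 libraries had a peak (exact permutation p = 0.0437, adjusted p = 0.213).

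SETD1A, SMYD3 and PHF2 were next in that direction. SETD1A had 5 to 12 peaks in 786-O (median 9.0) and 2 to 8 in RPTEC (median 6.5), with an adjusted p of 0.325 by the permutation test of the rate. The adjusted p was 0.350 for SMYD3 and 0.373 for PHF2. PHF2 lies on chromosome 9, which held 4.48 to 6.21% of the listed peaks in 786-O and 4.23 to 4.57% in RPTEC, and the part of this in its rate was not tested.

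In the other direction KMT2D had a rate of 3.77 ± 0.489 (n = 8) in 786-O and 4.40 ± 0.346 (n = 8) in RPTEC (exact permutation p = 0.0127, adjusted p = 0.0986). Its peak numbers went the other way, with a mean of 12.375 in 786-O and 11.625 in RPTEC, so that the direction depends on the scaling. Without 786-O SETD2KO-1 replicate 1 its adjusted p by the permutation test was 0.0435. SUV39H2, with 1 peak in every library, had a rate of 0.310 ± 0.0431 (n = 8) in 786-O and 0.387 ± 0.0659 (n = 8) in RPTEC (exact permutation p = 0.0112, adjusted p = 0.0909, and 0.0400 without 786-O SETD2KO-1R replicate 2), a difference made by list length alone. KMT2C had a rate of 3.23 ± 0.361 (n = 8) and 4.31 ± 1.26 (n = 8) (exact permutation p = 0.0359, adjusted p = 0.187). Its difference of -1.08 was -0.16 among the 50% of peaks with the highest scores (adjusted p = 1 by the permutation test), and in unscaled number its means differed by -0.5 peaks (adjusted p = 1), while for KMT2D the value among those top-scoring peaks was -0.23 (adjusted p = 0.931). With equally many top-scoring peaks per library the differences were -0.78 for KMT2C and -0.52 for KMT2D (adjusted p = 0.756 and 0.748 by the permutation test). KMT2E, SETMAR and KMT5B followed with adjusted p of 0.304, 0.307 and 0.524 by the permutation test.

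**Figure D2:**
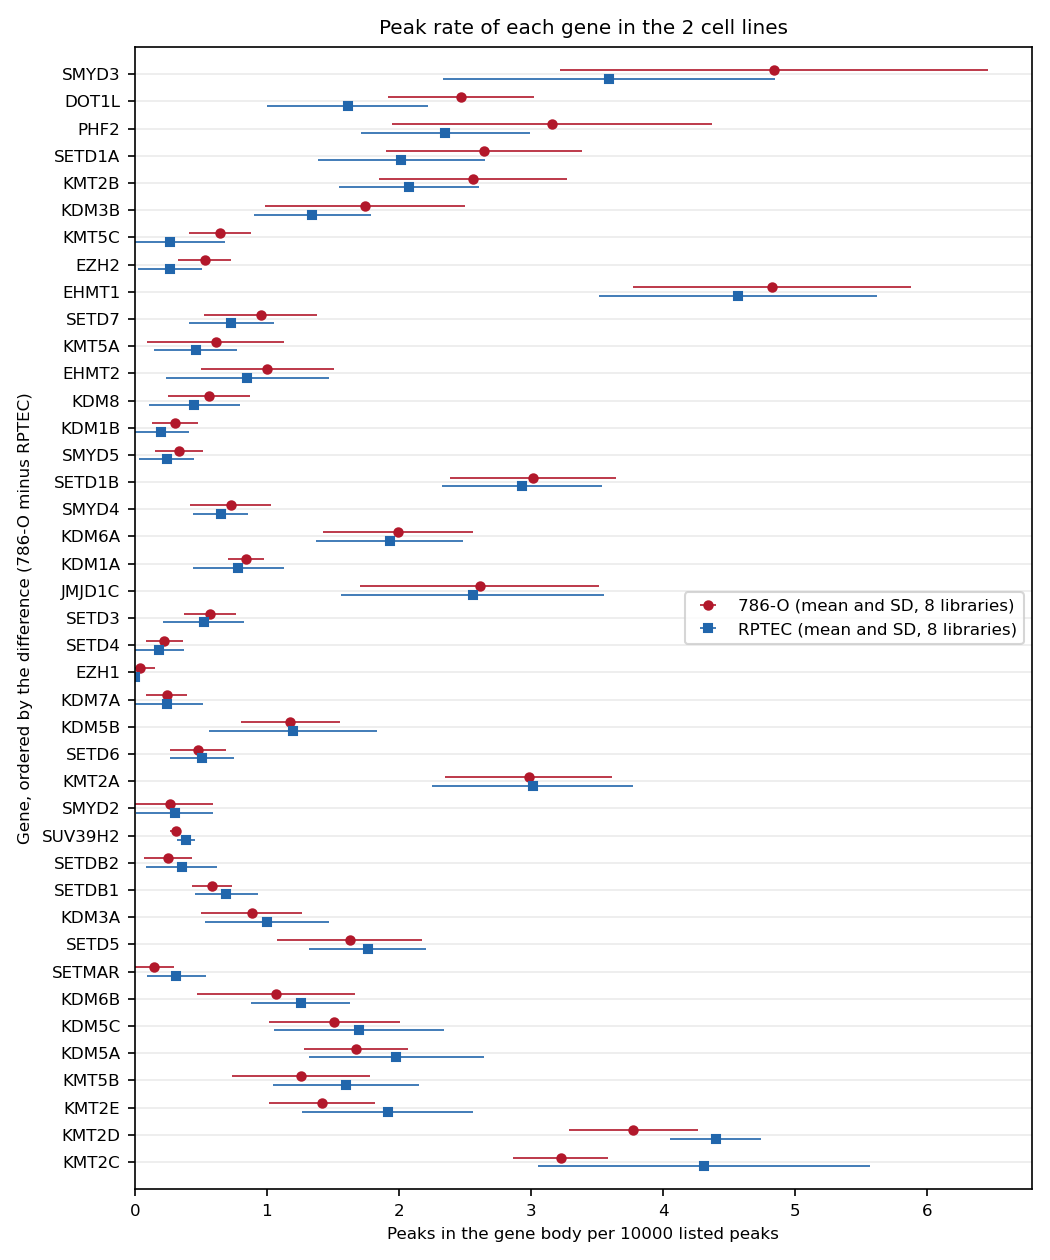
Peaks in the gene body per 10000 listed peaks for each of the 41 genes, with the mean and SD of 8 libraries of 786-O (circles) and of RPTEC (squares), ordered by the difference. DOT1L (2.47 against 1.61) is among the genes higher in 786-O and KMT2D (3.77 against 4.40) and KMT2C (3.23 against 4.31) lie at the other end, and the SDs of most genes overlap.

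The order of the genes was alike in the 2 cell lines. Spearman's rho between the mean peak numbers of 786-O and RPTEC was 0.97 across the 41 genes and 0.79 across all 13420 genes with a peak. Genes are not independent replicates, and the mean numbers share the gene lengths, so this is given as a description.

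The percentile of the best peak was compared in the 4626 genes with a peak in all 16 libraries, 26 of them among the 41. None of the 26 passed an adjusted p of 0.05, with a background of 1.08% higher in 786-O and 0.476% higher in RPTEC, and none had an unadjusted p under 0.05 (background 12.1% and 4.8%). For the 34 constant regions, the percentile within the list was compared in the same way over 4014 such regions, with 0 called in either direction by the permutation test after adjustment and 9.87% (higher in 786-O) and 3.96% (higher in RPTEC) at an unadjusted p under 0.05. Of the 34 regions, 4 were at an unadjusted p under 0.05, all higher in 786-O. Besides KMT2D they lay in DOT1L (57.2 in 786-O and 39.1 in RPTEC, adjusted p = 0.197 by the permutation test), KMT2E (61.1 and 40.9, adjusted p = 0.272) and PHF2 (69.9 and 49.7, adjusted p = 0.306). The DOT1L region, chr19:2229354-2230642, also lies in the gene PLEKHJ1, so that the transcript it belongs to is uncertain. The KMT2D region chr12:49037660-49039122 had the smallest p, at a mean percentile of 71.8 ± 8.20 (SD, n = 8) in 786-O and 47.9 ± 12.3 (n = 8) in RPTEC (exact permutation p = 0.00124, adjusted p = 0.0942). It ranked from 53.7 to 80.0 in 786-O and from 29.2 to 67.5 in RPTEC, so that the libraries overlapped.

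Regions called in 1 cell line more than in the other were compared with Fisher's exact test, 8 libraries against 8. No region of any gene passed an adjusted p of 0.05 over the 82676 regions in protein-coding genes, where the smallest p the design allows, 0.000155, gave an adjusted p of 0.0535. At an unadjusted p under 0.05, 6 regions of the 41 genes were called more often in 786-O and 0 in RPTEC, out of 492, with a background of 2.43% and 1.16%. They lay in SETD1A, JMJD1C, KDM3B, EZH2, DOT1L and PHF2, where the PHF2 region also lies in LOC124902215. With a library left out, 7 to 18 regions were at such a p in either direction. Calls were not scaled to the longer lists of 786-O, and the part of list length in them was not tested.

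The SETD1A region chr16:30982246-30983706, 1.69 kb from the 3′ end of the gene, was called in 7 of 8 libraries of 786-O and 0 of 8 of RPTEC (Fisher's exact p = 0.0014, adjusted p = 0.189). With only the 12437 regions called in 6 to 10 libraries tested, a limit chosen after the data were seen, its adjusted p was 0.0285 (background 2.7% called more often in 786-O and 2.21% in RPTEC). The region met that limit through its 786-O calls alone, so no conclusion is drawn from this value. It was also the region whose call changed when 786-O WT replicate 2 was left out (adjusted p by Fisher's exact test 0.0474). The KDM3B region chr5:138396202-138396740 was called in 8 of 8 and 2 of 8 libraries.

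More starts were called in 786-O than in RPTEC, among these genes as among all genes. These calls were not scaled to the longer lists of 786-O. Of the 49 starts, 27 had a peak on their first 50 bases in at least 1 library, 20 of them in more libraries of 786-O and 6 in more libraries of RPTEC, against 4045 and 1291 of the 6244 starts with a peak over all protein-coding genes. The start of JMJD1C (8 of 8 libraries of 786-O, 2 of 8 of RPTEC) and that of KDM6A (8 of 8 and 2 of 8) each had a Fisher's exact p of 0.00699, and that of EZH2 (8 of 8 and 3 of 8) one of 0.0256. None of these passed adjustment (adjusted p = 0.465, 0.465 and 0.738 by Fisher's exact test), and 3.7% of all such starts were at an unadjusted p under 0.05 in this direction and 1.02% in the other. In 786-O all 4 libraries of either SETD2 status had a peak at each of the 3 starts. In RPTEC the calls came from 2 SETD2KO and 0 SETD2-expressing libraries for KDM6A, from 1 and 1 for JMJD1C and from 1 and 2 for EZH2. The region at the JMJD1C start lies 55.9 kb into the gene, at an internal start, and also in the gene JMJD1C-AS1, so its peaks could belong to either transcript. This comparison was chosen after the peaks at starts had been seen.

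**Figure D3:**
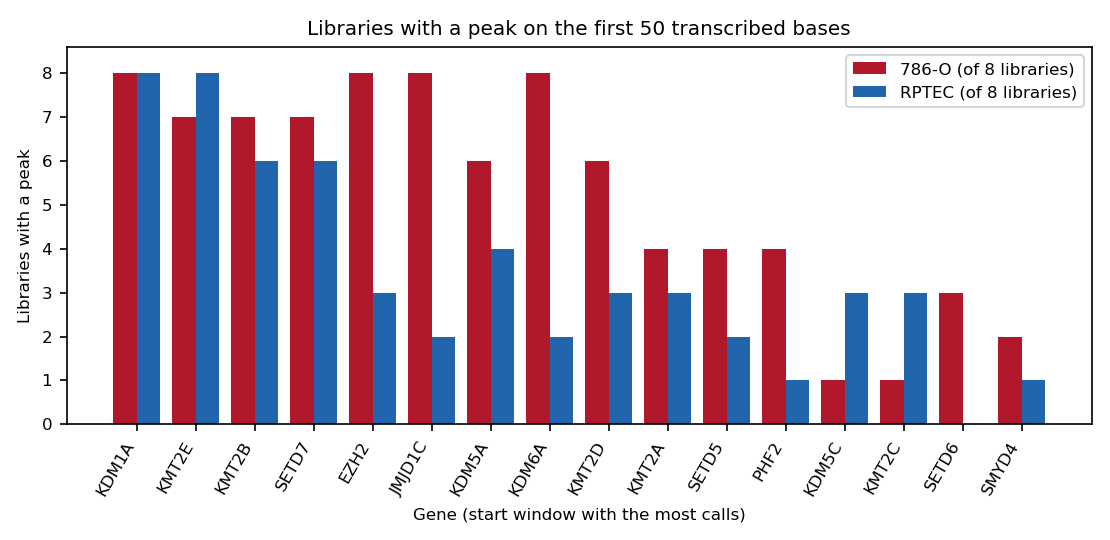
Number of libraries (y axis, of 8 per cell line) with a peak on the first 50 transcribed bases, for the genes with at least 3 such libraries and, where a gene has several starts, the start with the most calls. KDM1A is called in all 16 libraries, while EZH2, JMJD1C and KDM6A are called in all 8 libraries of 786-O and in 3, 2 and 2 of RPTEC.

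Genes that encode partners of these enzymes were counted in the same test. Of 36 subunits of PRC2, COMPASS, CoREST and the H3K9 methyltransferase complexes, 17 had a peak in all 16 libraries. This held for 23.1% of all protein-coding genes and 34.5% of those with a peak in any library. A further 2 subunits, EZHIP and RCOR2, had no peak and were not tested. After adjustment 1 was higher in 786-O and 1 in RPTEC, which is no larger a share than the 3.2% and 3.82% of all genes tested. WDR5, a shared COMPASS subunit, had a mean of 4.125 ± 1.25 (SD, n = 8) peaks in 786-O and 1.5 ± 0.756 (n = 8) in RPTEC (exact permutation test of the rate, adjusted p = 0.0169, and 0.0280 in peak number), and lies on chromosome 9. EED, a core subunit of PRC2, had 0.875 ± 0.354 (n = 8) in 786-O and 2.0 ± 0.926 (n = 8) in RPTEC (adjusted p = 0.0104 by the permutation test of the rate, and 0.158 in peak number).

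Whether loss of SETD2 moved peaks in these genes was tested within each cell line and over both. Over both cell lines, with arrangements within cell line, no gene of the 13420 passed an adjusted p of 0.05 by the exact permutation test, with a background at an unadjusted p under 0.05 of 3.85% higher in SETD2KO and 5.19% higher in SETD2-expressing libraries. Of the 41 genes 1 was higher and 3 were lower in SETD2KO at an unadjusted p under 0.05, and in unscaled peak number 1 and 2 were (background 2.61% and 2.73%).

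KMT2A, which encodes the MLL1 methyltransferase, had the smallest p. In 786-O it had 12 and 13 peaks in WT, 10 and 9 in SETD2KO-1, 9 and 6 in SETD2KO-2, and 11 and 8 in SETD2KO-1R. In RPTEC it had 9 and 9 in WT, 8 and 7 in SETD2KO-1, 6 and 4 in SETD2KO-2, and 12 and 9 in SETD2KO-1R. Its rate was 2.48 ± 0.425 (SD, n = 4) in SETD2KO and 3.48 ± 0.291 (n = 4) in SETD2-expressing libraries of 786-O, and 2.47 ± 0.527 (n = 4) and 3.55 ± 0.560 (n = 4) in RPTEC. In 786-O the rates did not overlap, and in RPTEC the peak numbers did not overlap while the rates did. The mean peak number in WT, SETD2KO-1 and SETD2KO-1R was 12.5, 9.5 and 9.5 in 786-O. In RPTEC it was 9, 7.5 and 10.5. Over both cell lines the rate was lower by 1.04 in SETD2KO (exact permutation p = 0.00122, adjusted p = 0.196, or by 0.57 with an adjusted p of 1 among the 50% of peaks with the highest scores and by 1.56 with an adjusted p of 0.929 with equally many top-scoring peaks per library), and the difference between the cell lines was 0.0745 (exact permutation p = 0.914). Per 1000 listed peaks of its own chromosome the difference kept its direction, at -1.38 in 786-O and -1.87 in RPTEC (exact permutation p = 0.0857 in each), and the 786-O libraries then overlapped.

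KDM6A had 6 and 7 peaks in 786-O WT, 8 and 7 in SETD2KO-1, 7 and 9 in SETD2KO-2 and 4 and 4 in SETD2KO-1R. In RPTEC it had 3 and 5 in WT, 6 and 7 in SETD2KO-1, 4 and 5 in SETD2KO-2 and 6 and 4 in SETD2KO-1R. Over both cell lines its rate was higher by 0.61 in SETD2KO (exact permutation p = 0.0245, adjusted p = 0.444). KDM6A lies on the X chromosome, which held 3.56 to 4.17% of the listed peaks in RPTEC SETD2KO and 2.36 to 2.63% in RPTEC SETD2-expressing libraries, and per 1000 peaks of that chromosome the difference in RPTEC was -1.04 (exact permutation p = 0.514), with the sign turned, and in 786-O 1.69 (exact permutation p = 0.171), with the sign kept. DOT1L had 8 and 10 peaks in 786-O WT, 5 and 9 in SETD2KO-1, 11 and 5 in SETD2KO-2 and 9 and 8 in SETD2KO-1R, and 5 and 2, 3 and 4, 3 and 3, and 7 and 8 in RPTEC. The other members under an unadjusted p of 0.05 were DOT1L, lower by 0.64 in SETD2KO (exact permutation p = 0.0290, adjusted p = 0.448), and KDM5B, lower by 0.49 (exact permutation p = 0.0453, adjusted p = 0.531). Among the top-scoring 50% of peaks their differences were -0.37 (adjusted p = 0.974 by the permutation test) and -0.098 (adjusted p = 1).

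Within a cell line, 4 libraries against 4 allow an exact permutation p of 0.0286 at the lowest, too coarse for adjustment over so many genes. No gene passed adjustment, and no conclusion is drawn from this or from the adjusted p-values within a cell line. In 786-O, 2 of the 41 genes had rates in SETD2KO below all SETD2-expressing libraries (background 2.7% of 12430 genes) and 0 above them (background 1.79%). Besides KMT2A this was SMYD2, a protein lysine methyltransferase. SMYD2 had 1 and 3 peaks in WT, 0 in all 4 SETD2KO libraries and 2 and 1 in SETD2KO-1R, none of them among the 50% of peaks with the highest scores, while in RPTEC it had 0 and 1 in WT, 2 and 1 in SETD2KO-1, 0 and 1 in SETD2KO-2 and 0 and 1 in SETD2KO-1R. In unscaled peak number the background was 0.901% below and 1.52% above, with SMYD2 the member that did not overlap.

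Among those higher in 786-O SETD2KO, PHF2 had 11 and 8 peaks in WT, 14 and 12 in SETD2KO-1, 19 and 11 in SETD2KO-2 and 7 and 3 in SETD2KO-1R. Its rate was 4.06 ± 0.610 (SD, n = 4) in SETD2KO and 2.26 ± 0.952 (n = 4) in SETD2-expressing libraries (exact permutation p = 0.0571, adjusted p = 0.698), and WT replicate 1 overlapped with SETD2KO. In RPTEC its rate was 2.36 ± 0.965 (n = 4) and 2.34 ± 0.180 (n = 4). Chromosome 9 as a whole held 5.92 to 6.21% of the listed peaks in 786-O SETD2KO and 4.48 to 5.04% in 786-O SETD2-expressing libraries, and per 1000 peaks of that chromosome the difference for PHF2 was 2.03 (exact permutation p = 0.114). EHMT1, also on chromosome 9, had 18 and 20 peaks in 786-O WT, 15 and 20 in SETD2KO-1, 23 and 14 in SETD2KO-2 and 11 and 8 in SETD2KO-1R. Its difference turned from 0.77 to -0.56 with that scaling.

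KDM3A, an H3K9 demethylase, had 2 and 4 peaks in 786-O WT, 4 and 4 in SETD2KO-1, 5 and 3 in SETD2KO-2 and 1 and 1 in SETD2KO-1R (exact permutation p of the rate 0.0571, adjusted p = 0.698). In RPTEC it had 2 and 1, 2 and 4, 4 and 1, and 5 and 3 in the same order of lines. SMYD3 had 20 and 24 peaks in 786-O WT, 9 and 15 in SETD2KO-1, 24 and 9 in SETD2KO-2 and 11 and 16 in SETD2KO-1R, and 5 and 5, 8 and 11, 12 and 11, and 10 and 13 in RPTEC. In 786-O SETD2KO-2 alone its libraries spanned 9 to 24. KDM5A, KDM1B, DOT1L and KDM5B completed the members with the smallest p in 786-O, with exact permutation p of 0.257, 0.0857, 0.114 and 0.114. SMYD4 had an exact permutation p of 0.0857 there, KDM6A one of 0.114 and EHMT1 one of 0.314.

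In RPTEC, 1 of 40 members with a peak had rates in SETD2KO below all SETD2-expressing libraries (background 1.95% of 12185 genes) and 0 had rates above (background 2.17%). This was SMYD4, with 2 and 2 peaks in WT, 1 and 2 in SETD2KO-1, 1 and 1 in SETD2KO-2 and 2 and 3 in SETD2KO-1R, so that the peak numbers overlapped, and the difference of -0.32 in rate turned to 0.28 among the 50% of peaks with the highest scores. In 786-O it had 2 and 2, 3 and 2, 3 and 4, and 2 and 1 in the same order of lines. In unscaled number KMT2A was the member that did not overlap in RPTEC (background 1.41% below and 1.01% above). JMJD1C had 10 and 10 peaks in RPTEC WT, 6 and 7 in SETD2KO-1, 4 and 3 in SETD2KO-2 and 8 and 6 in SETD2KO-1R (exact permutation p of the rate 0.114). SETD5, KMT2D, KDM8, SETMAR, EZH2 and KDM3B, the other members with the smallest p, had exact permutation p of 0.143 to 0.286.

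**Figure D4:**
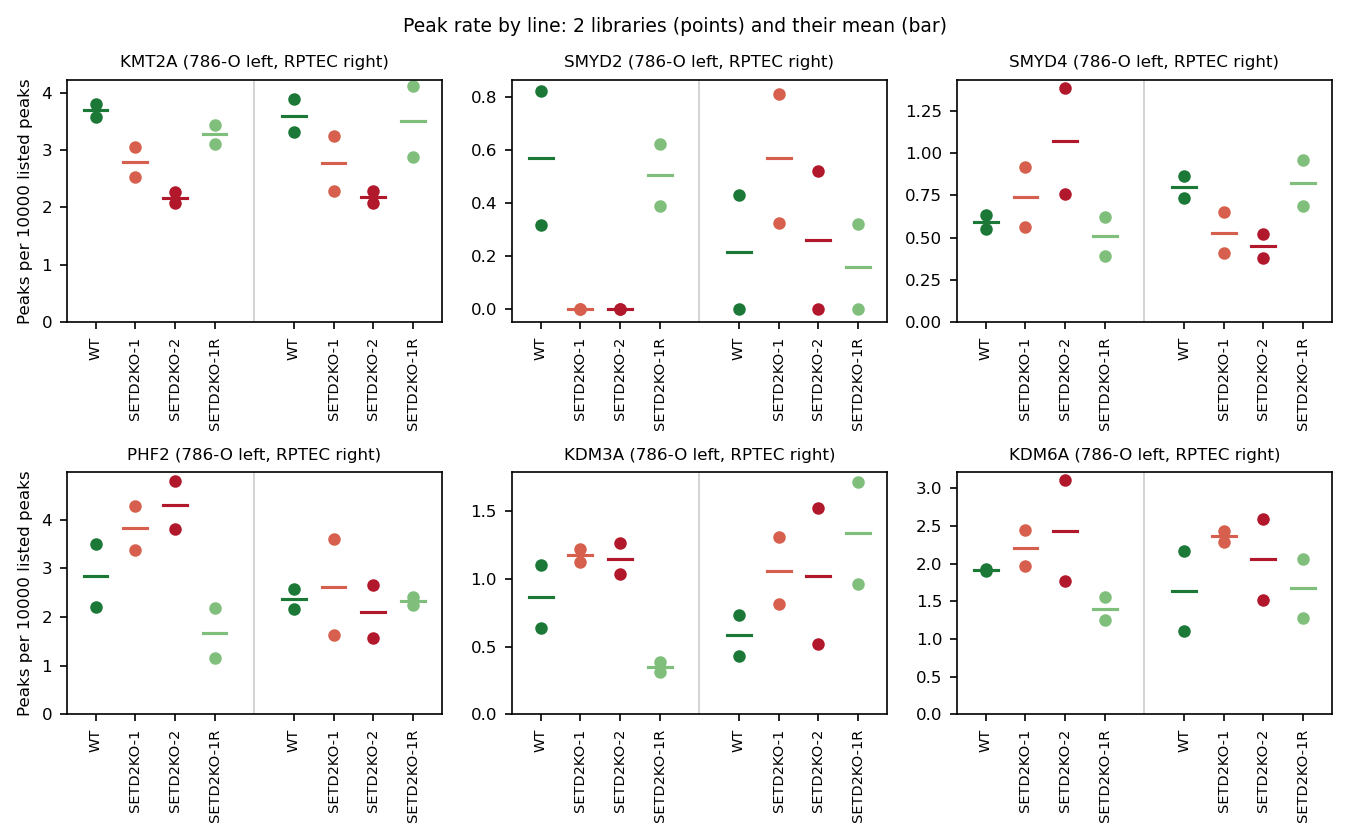
Peaks per 10000 listed peaks for 6 genes in each line, 2 libraries (points) and their mean (bar), with 786-O on the left and RPTEC on the right of each panel. The mean of KMT2A is lower in SETD2KO in both cell lines (2.48 against 3.48 and 2.47 against 3.55), with overlapping libraries in RPTEC. SMYD2 is at 0 in the 4 SETD2KO libraries of 786-O. PHF2 is higher in SETD2KO in 786-O (4.06 against 2.26) and not in RPTEC (2.36 against 2.34).

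The KMT5A gene, whose product is the H4K20 monomethyltransferase, was named after its values were seen. It had 5 and 4 peaks in 786-O WT, 1 and 1 in SETD2KO-1, 2 and 1 in SETD2KO-2 and 0 and 2 in SETD2KO-1R. The region chr12:123407249-123407512 was called in both WT libraries and in none of the other 6 of 786-O, at a mean percentile of 88.1, and the start of the gene was called in these 2 libraries alone of all 16. Regions called in both WT and no SETD2KO library of 786-O numbered 6 of 431 in the 41 genes (background 1.58%), so the pattern was not more frequent in these genes. In RPTEC the gene had 2 and 0 peaks in WT, 0 and 2 in SETD2KO-1, 2 and 1 in SETD2KO-2 and 2 and 1 in SETD2KO-1R.

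Regions whose calls followed SETD2 status were taken as those called in all 4 libraries of 1 status and none of the other, after peaks were merged within a cell line. In 786-O, 1 of the 431 regions in the 41 genes was called in all SETD2KO and no SETD2-expressing library (background 0.28% of 65991 regions) and 0 the other way round (background 0.152%). It lay in KDM3A at chr2:86461514-86462199, 24.8 kb from the 5′ end of the gene, at percentiles of 42.6 to 55.5, and was not such a region among the 50% of peaks with the highest scores. In RPTEC 0 of 362 regions were called in either way (background 0.195% and 0.213% of 59064 regions). With a library left out the numbers were 1 to 6 in 786-O, KDM3A each time, and 0 to 2 in RPTEC.

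With a difference of at least 3 libraries, 11 regions in 786-O were called more often in SETD2KO (background 2.18%) and 6 in SETD2-expressing libraries (background 1.23%), and in RPTEC 2 (background 1.2%) and 4 (background 1.94%). KMT2A had such regions in both directions in 786-O. The region chr11:118521645-118522360, 85.5 kb from its 5′ end, was called in 4 of 4 libraries with SETD2 and 1 of 4 SETD2KO libraries, and chr11:118472480-118472869 in 1 of 4 and 4 of 4. In RPTEC the KMT2A region at the start of the gene, chr11:118436455-118436904, was called in 3 of 4 SETD2-expressing and 0 of 4 SETD2KO libraries. The start of KMT2A was also called in 3 of 4 SETD2-expressing and 1 of 4 SETD2KO libraries of 786-O.

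The KMT5B region chr11:68190054-68190389 in RPTEC had the highest scores of these, at a mean percentile of 97.1. Each of the 4 SETD2-expressing libraries held it, as did 1 of 4 SETD2KO libraries, from SETD2KO-2. The regions of KDM6B (chr17:7842308-7843277) and KDM6A (chrX:45041513-45042228) in 786-O were called in all 4 SETD2KO libraries, in neither WT library and in 1 of the SETD2KO-1R libraries, and that of PHF2 (chr9:93624072-93624803) likewise but in both SETD2KO-1R libraries. With KDM3A these were the 4 of 431 regions called in all SETD2KO and neither WT library (background 0.693%).

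**Figure D5:**
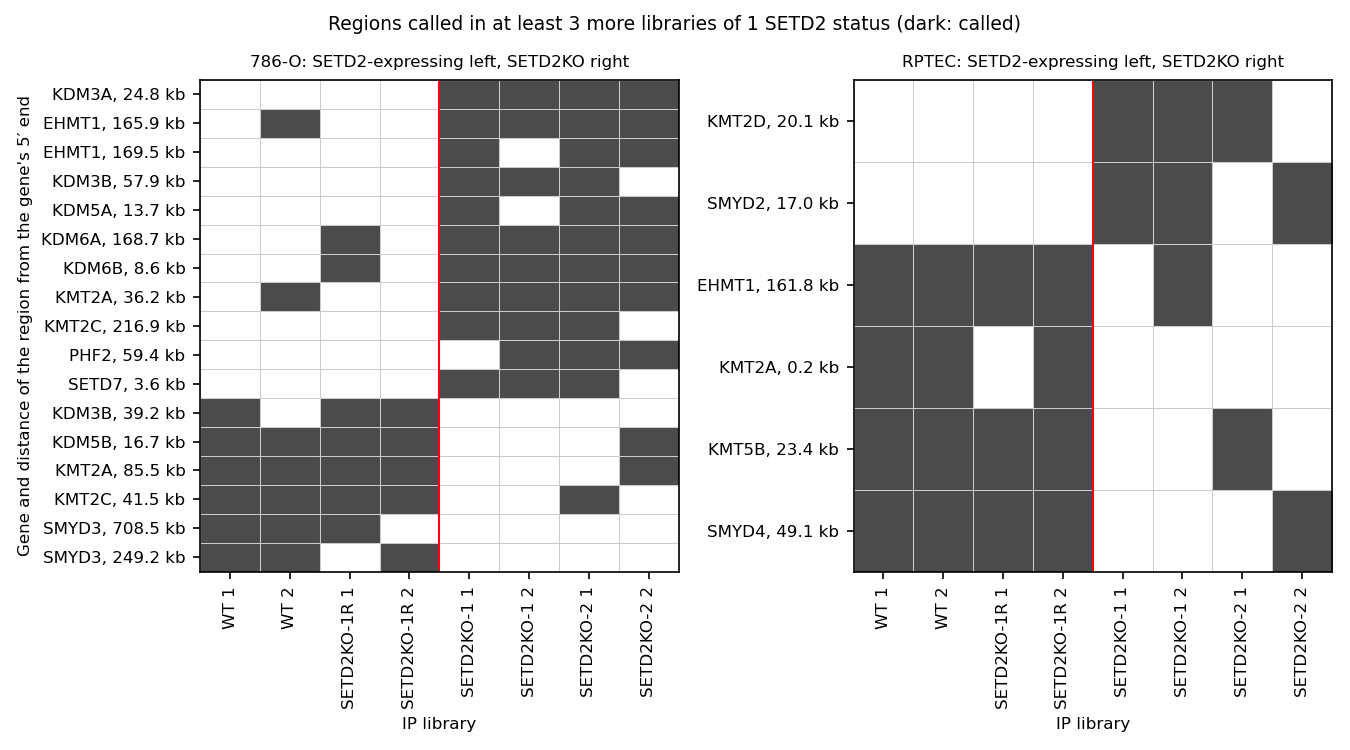
Regions of the 41 genes called in at least 3 more libraries of 1 SETD2 status, in 786-O (left) and RPTEC (right). Rows give the gene and the distance of the region from its 5′ end in kb, columns the libraries, and dark cells a call. KDM3A at 24.8 kb is the region called in all 4 SETD2KO and no SETD2-expressing libraries.

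The rescue line allows a further count. In 786-O, 12 regions of the 41 genes were called in both SETD2KO-1 libraries and neither WT library, and 6 of these were called in 0, 4 in 1 and 2 in both SETD2KO-1R libraries. Over all protein-coding genes 1087 of 2115 such regions were called in 0 and 286 in both. Conversely 17 regions were called in both WT and no SETD2KO-1 library, of which 4 were called in both SETD2KO-1R libraries and 6 in 0 (289 and 1054 of 2030 over all genes). In RPTEC, 10 regions were in the first class, with 4 in 0 and 4 in both SETD2KO-1R libraries (826 and 529 of 2015), and 6 in the second, with 3 called in both and 1 in 0 (332 and 661 of 1677).

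The percentile of the best peak did not pass the test for SETD2 status in any of the 26 genes called in all libraries. Over both cell lines 0 of them had an unadjusted p under 0.05 (background 3.13% higher in SETD2KO and 4.43% higher in SETD2-expressing libraries) by the exact permutation test. Of the constant regions, KMT2A chr11:118504321-118506495 had a mean percentile of 51.2 in SETD2KO and 60.2 in SETD2-expressing libraries of 786-O (n = 4 each) and of 29.7 and 53.2 in RPTEC (n = 4 each), with an exact permutation p of 0.0371 and an adjusted p of 0.703 (background 2.09% and 4.61% at an unadjusted p under 0.05). The KMT2B region chr19:35731049-35733259 went the other way, at 61.4 against 44.0 in 786-O and 59.5 against 43.7 in RPTEC (exact permutation p = 0.0376, adjusted p = 0.707).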

How the data were processed

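The authors made the IP peak lists, and the submitters' notes name STAR, HTSeq and MACS2 and the build hg38. The deposited score of each peak is a whole number of unstated scale and was used only as a percentile within its list. The deposited fold, p and q columns held 0 throughout, and the Input libraries were not analysed here. Peaks were assigned to 41 named genes by RefSeq gene bodies (GRCh38.p14). Exact permutation tests (12870 arrangements for 8 against 8, 4900 within cell lines, 70 for 4 against 4) and Fisher's exact tests were two-sided, run on all protein-coding genes or regions with NumPy 2.4.6, pandas 2.3.3 and SciPy 1.17.1, and checked on simulated peak numbers. The depth per library is not in the files, so no intervals were formed. No peak was identical in 2 libraries. Genes given in full were the 6 per direction with the smallest p in 3 contrasts and the leader of each role. The rule for the 41 genes uses no measured value, but the genes and lists were chosen with earlier results of these data known. Libraries were grouped by the line in their labels. Alternatives were unscaled numbers, other overlap rules, higher-scoring peaks, merging within 100 bp, leaving out 1 library at a time and blocking on the replicate number, and scaling to the chromosome, regions called in 6 to 10 libraries and start windows were added after the data were seen.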

Additional observations from a re-analysis of the deposited data

Results flagged for a closer look

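In 56 groups of 4 libraries (the share of peaks in the 41 genes, and the peak rates of the 13 genes with a mean of at least 5 peaks), 3 had a library far from the other 3, and chance gives about 1 in 20. The share of listed peaks in these genes was 0.644% in RPTEC SETD2KO-1R replicate 2 and 0.579 to 0.587% in the other SETD2-expressing libraries of RPTEC (gap over range 0.890). The rate of KMT2D was 4.37 in 786-O SETD2KO-1R replicate 1 against 3.49 to 3.57 in the other SETD2-expressing libraries of 786-O (gap over range 0.908). The rate of SMYD3 was 3.44 in that same library against 6.22 to 6.59 in the others (gap over range 0.883).

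The SETD2KO effect on the peak rate differed between the cell lines at an unadjusted p under 0.05 in 3 of the 41 genes, 1 with a larger value in 786-O and 2 with a larger value in RPTEC. For SMYD4 the effect in 786-O minus that in RPTEC was 0.68 (exact permutation p = 0.00204, adjusted p = 0.668). For SMYD2 it was -0.77 (exact permutation p = 0.0122, adjusted p = 0.735), and for SMYD3 -3.00 (exact permutation p = 0.0384, adjusted p = 0.812). Over all 13420 genes 2.72% were at an unadjusted p under 0.05 in the positive direction and 3.13% in the negative, and 0 passed adjustment.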

How the results depend on the processing

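Scaling, list length and single libraries set what can be said. The share of peaks in the 41 genes came to 0.642% among the 50% of peaks with the highest scores of a list, against 0.588%, and 0.580 to 0.592% with a library left out. The count of the 41 genes called between the cell lines was 0 under the 8 other settings and 0 to 1 with a library left out (KMT2D, SUV39H2). The difference of KMT2D became 0.75 in unscaled peak number. The genes without overlap between SETD2 states in 786-O numbered 1 in unscaled number, 1 scaled to the chromosome and 2 to 5 with a library left out (KMT2A and SMYD2 each time, 5 without WT replicate 2 or SETD2KO-2 replicate 2), and in RPTEC 0 in the upper 50%, 0 scaled to the chromosome and 1 to 4 with a library left out (SMYD4 each time, 4 without WT replicate 2), where fewer libraries overlap less by construction. In the upper 50% the SMYD4 difference in RPTEC was 0.28 and the 2 genes of 786-O were DOT1L and KDM1B. With only regions called in 6 to 10 libraries tested, a limit chosen after the data were seen, 1 member region was called between the cell lines. This region, in SETD1A, met the limit through its 786-O calls alone. Member regions called between the cell lines numbered 0 to 1 with a library left out. Those at an unadjusted p under 0.05 numbered 7 to 18 then, against 6. Regions whose calls followed SETD2 status numbered 1 to 6 in 786-O (KDM3A each time, 6 without SETD2KO-2 replicate 2) and 0 to 2 in RPTEC with a library left out, and in the upper 50% the 786-O region was 1 in KDM1B in place of that of KDM3A. The replicate numbers did not pair the libraries (correlations of deviations from -0.26 to 0.29), and with the replicate block 0 of the 41 genes were called for cell line and 0 for SETD2 status. The cause of these changes was not tested. The depth per library is not in the files, so a missing call is not an absence of m6A.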
